A study of Mus musculus with 12 samples.

Results

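The genes described here are the receptors of transforming growth factor beta (TGF-beta) and activin and the Smad proteins that act below them, in helper T cells sorted from immunized mice. The genes were chosen by name, Acvrl1, Tgfbr1, Tgfbr2, Tgfbr3, Acvr2a, Smad2, Smad3, Smad4, Smad7 and Skil, which are 10 of the 18194 genes that the array's annotation names with a single symbol. They were picked with the loss of the Acvrl1 signal in both groups of follicular helper T (Tfh) cells already known, so the Acvrl1 values in Tfh cells are given as a description, with no test. The annotation gave these genes 24 probe sets. Of these, 15 reached a log2 value of 5 on at least 2 of the 12 arrays and were tested, at least 1 for each gene, and the other 9 lay between 2.02 and 3.56 on every array. Each value is a log2 level of 1 probe set, a group of short probes read together, and levels of different probe sets were not set against each other.

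All cells came from mice carrying 1 copy of a Venus reporter at the S1pr2 locus (S1pr2V/+), which marks cells that transcribe this sphingosine 1-phosphate receptor gene. The mice had received chicken gamma globulin (CGG) in complete Freund's adjuvant (CFA) under the skin 10 days before the sort, and their strain and age are not given in the sources used here. Lymph node cells gave 4 groups. Venus-high Tfh cells (3 arrays, pools of 4, 6 and 4 mice) and Venus-low Tfh cells (3 arrays, pools of 4, 6 and 4 mice) were both CD4+ CXCR5+ PD1-high CD44-high and differed in Venus. PD1-intermediate helper T (Th) cells (2 arrays, 4 and 4 mice) were CXCR5+ CD44-high, and PD1-low Th cells (2 arrays, 6 and 4 mice) were CXCR5-low CD44-high. Naive CD4 T cells (2 arrays, 2 and 2 mice) were CD44-low CD62L-high and came from the spleen, so the organ differs together with the cell state in every comparison with naive cells. The source label calls their donors immunized too. Each array started from 20 ng of total RNA. Every array is a pool of mice, so the spread between arrays is the spread between pools.

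TGF-beta and activin bind a type II receptor kinase, which then phosphorylates a type I receptor kinase in the same complex. The activated type I receptor phosphorylates Smad2 and Smad3, which join Smad4 and enter the nucleus, while Smad7 blocks the receptor and Skil (SnoN) holds Smad complexes inactive at their target genes. In CD4 T cells this pathway restrains activation and proliferation, and it is needed for the induction of Foxp3 in peripheral regulatory T cells.

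The 12 arrays fell into 3 sets by the distribution of their values, with 3, 4 and 5 arrays. The upper quartile of an array was 8.50 to 8.55 in the first set, 8.68 to 8.76 in the second and 9.39 to 9.42 in the third. Arrays of the same set shared 362 to 4942 exactly equal probe set values per pair, and arrays of different sets shared 0 or 1. Both Tfh groups had 1 array in each set, the PD1-intermediate arrays were both in the third set, PD1-low arrays were in the second and the third, and naive arrays were in the first and second. No label explains the sets. The differences of the 10 genes are thus given from the fit of the 5 groups and from the fit with array set as an added term. For many of them the values within the sets that hold both groups follow. For the other genes of the pathway mostly the fit of the 5 groups alone is given. Without the set term the median difference of all 22024 tested probe sets was as far from 0 as -0.44 (Venus-high Tfh minus PD1-intermediate Th), and with it every median lay within 0.04 of 0. The gates held in the data. S1pr2 was 13.09, 12.58 and 12.99 in Venus-high Tfh arrays, 10.68, 9.86 and 10.21 in Venus-low Tfh arrays, 9.33 and 9.28 in PD1-intermediate Th arrays, 7.58 and 7.23 in PD1-low Th arrays, and 5.78 and 6.91 in naive arrays. All 4 T cell markers were high on all 12 arrays, between 12.85 and 15.20.

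**Figure D1:**
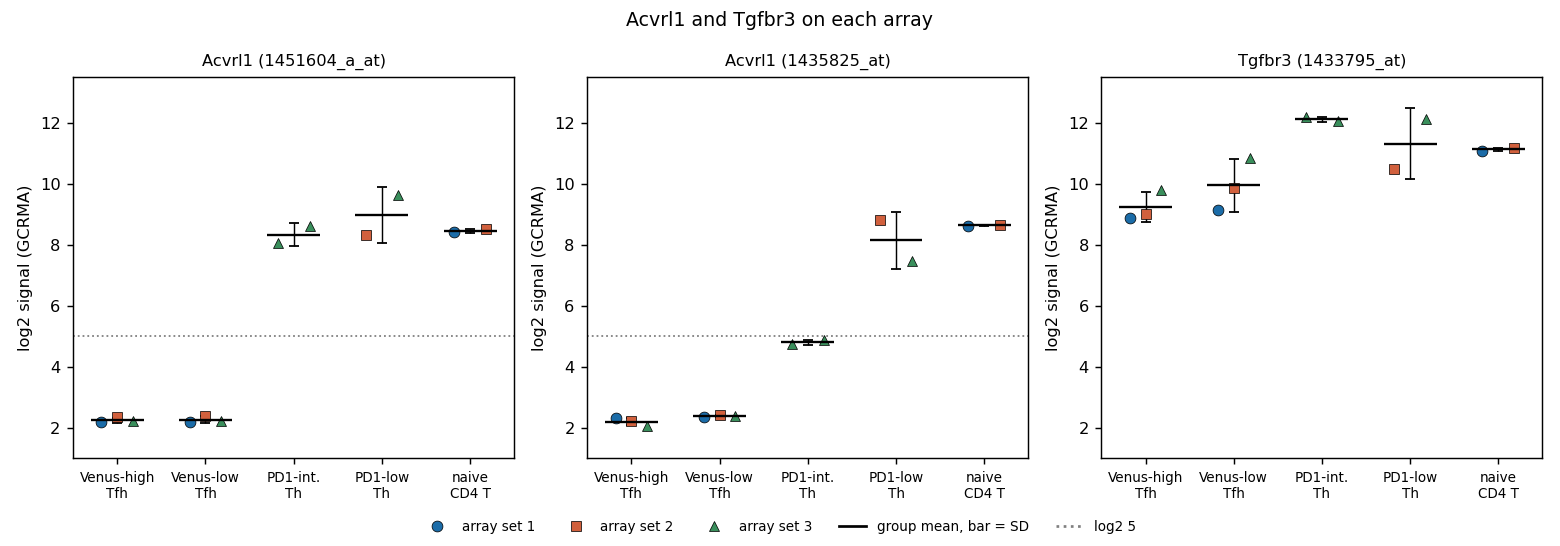
Log2 signal (vertical axes, as deposited) of both Acvrl1 probe sets and of Tgfbr3 on each of the 12 arrays, with the 5 sorted groups along the horizontal axes. Marker shape and colour give the array set, the line the group mean, the bar its SD and the dotted line log2 5; Acvrl1 probe set 1451604_a_at is between 2.18 and 2.39 on the 6 Tfh arrays and at 8.07 or above on the others, and Tgfbr3 is lowest in Venus-high Tfh cells.

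Acvrl1 encodes ALK1, a type I receptor best known in endothelial cells, where it binds BMP9 and BMP10. Its signal was under log2 5 in both Tfh groups on both probe sets. It was above log2 5 in PD1-low Th and naive cells on both, and in PD1-intermediate Th cells on 1 of the 2. Probe set 1451604_a_at read 2.18, 2.34 and 2.22 in Venus-high Tfh cells and 2.20, 2.39 and 2.21 in Venus-low Tfh cells. The same probe set read 8.07 and 8.60 in PD1-intermediate Th cells, 8.31 and 9.62 in PD1-low Th cells, and 8.41 and 8.51 in naive cells. No Tfh array came near any array of the other 3 groups, and this held inside each array set. Because log2 values near 2 carry no order, folds are given against a floor of log2 5: Acvrl1 was at least 10.1-fold lower in Venus-high Tfh cells, and in Venus-low Tfh cells, than in PD1-intermediate Th cells, and at least 11-fold lower in Venus-high Tfh cells than in naive cells. These are the values that led to the choice of genes, so they carry no test.

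The other Acvrl1 probe set, 1435825_at, was also under log2 5 in Tfh cells, but in PD1-intermediate Th cells it differed from 1451604_a_at. It read 2.31, 2.23 and 2.07 in Venus-high Tfh cells and 2.35, 2.42 and 2.38 in Venus-low Tfh cells. PD1-intermediate Th cells read 4.74 and 4.86, under the floor, against 8.80 and 7.48 in PD1-low Th cells and 8.61 and 8.65 in naive cells. On this probe set the PD1-intermediate and Tfh arrays were all under log2 5, where values carry no order, and PD1-low and naive arrays were all above it. PD1-intermediate Th cells were lower than PD1-low Th cells by limma, a difference of -3.34 ± 0.39 (log2, SE; n = 2 each, adjusted p = 0.00438; -3.10 with the set term, adjusted p = 0.00282), which is at least 8.83-fold lower against the floor. This probe set passed the filter only through PD1-low and naive arrays, where it is high. The SE also draws on Tfh arrays near the floor (SD 0.12 in Venus-high and 0.035 in Venus-low), while PD1-low Th cells had an SD of 0.93. Probe set 1451604_a_at differed by -0.63 ± 0.41 in the same comparison (adjusted p = 0.838; 0.345 with the set term), so the 2 probe sets of Acvrl1 did not give the same result there. The 1435825_at call was lost without PD1-intermediate Th array 1 (adjusted p = 0.0660), with a trended robust prior (adjusted p = 0.0776), and with only those 2 groups in the fit (adjusted p = 0.277). Which stretch of the transcript each probe set reads was not analysed here.

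Markers of endothelial cells, the cell type best known for Acvrl1, were mostly near the floor. Of 10 endothelial markers only Pecam1, which T cells also express, reached log2 5 on any array (6.21 to 8.59), and Cdh5 stayed between 2.14 and 2.22. Pecam1 read 6.21 to 7.94 on Tfh arrays and 7.27 to 8.59 on the arrays of the other groups, which overlap. The summed log2 level of the 10 markers was 26.8 to 27.6 in Venus-high Tfh cells, 27.0 to 27.4 in Venus-low Tfh cells, 27.2 to 27.3 in PD1-intermediate Th cells, 27.2 to 27.8 in PD1-low Th cells and 27.9 to 28.8 in naive cells. Apart from Pecam1 these sums hold values under log2 5, which carry no order, so they cannot rank the groups. Regulatory T cell markers, taken as a sum, differed between groups. Their summed level over the 5 measured markers was 29.8 to 34.4 in Venus-high Tfh cells and 44.8 to 53.4 in Venus-low Tfh cells, against 52.7 to 54.8 in PD1-intermediate Th cells, 56.6 to 62.8 in PD1-low Th cells and 43.9 to 44.0 in naive cells. Ikzf2 went another way than this sum, at 12.83 to 13.79 in Venus-high Tfh cells, 12.79 to 13.85 in Venus-low Tfh cells and 9.01 and 9.16 in naive cells. Il2ra and Ikzf4 were under log2 5 on every Venus-high Tfh array, so part of the summed difference lies where values carry no order. The 4 measured CD8 T and NK cell markers summed to 9.02 to 10.2 in Venus-high Tfh cells and 10.7 to 14.3 in Venus-low Tfh cells, against 16.6 to 18.2 in PD1-intermediate Th cells, 21.6 to 23.0 in PD1-low Th cells and 17.0 to 19.5 in naive cells. Klrd1 accounted for the widest range, at 1.99 to 2.74 in Venus-high Tfh cells, against 10.80 and 11.50 in PD1-low Th cells and 9.45 and 9.73 in naive cells. Cd8b1 reached 6.35 and 6.62 in PD1-low Th cells, and Cd8a was at 2.80 or below on every array. The part of any of these cell types in the results was not tested. In these sorted pools fewer cells of a type and less RNA per cell cannot be told apart.

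The genes whose pattern was most like that of Acvrl1 were found by Pearson correlation with 1451604_a_at over the 12 arrays, among 9891 genes with 1 probe set each. The highest were Slc12a7 (r = 0.975), Rgs14 (r = 0.975), Igsf23 (r = 0.975), Pmel (r = 0.972) and Fam189b (r = 0.969). The arrays share their sets and pools, so these are descriptions. For each of these 5 genes the highest Tfh array lay below the lowest array of the other groups. This separation follows largely from picking them by correlation with Acvrl1 on the same arrays, so it is no separate result. Rgs14, a regulator of G-protein signalling, was at most 9.81 on Tfh arrays and at least 10.62 elsewhere. Igsf23 was at most 8.59 on Tfh arrays and at least 10.19 elsewhere. None of the 5 fell to the floor in Tfh cells as Acvrl1 did. Over the 5 group means the closest were Rpl12, Setd6, Ms4a6b, Fam102a and Cox7c (r = 0.997 to 0.998).

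Tgfbr1 (ALK5), the type I receptor that TGF-beta uses to activate Smad2 and Smad3, was detected in all groups on probe set 1420895_at. It read 9.98, 10.43 and 11.43 in Venus-high Tfh cells, 9.98, 10.59 and 11.37 in Venus-low Tfh cells, 11.41 and 11.44 in PD1-intermediate Th cells, 10.54 and 11.89 in PD1-low Th cells, and 10.75 and 10.66 in naive cells. The arrays of neighbouring groups overlapped throughout the order of the means, and array 1 of both Tfh groups had the same value. The difference of Venus-high Tfh minus naive cells was -0.09 ± 0.58 (limma, adjusted p = 0.967), and -0.51 with the set term (adjusted p = 0.0787). No comparison called Tgfbr1.

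Tgfbr2 is the type II receptor that binds TGF-beta itself. Probe set 1426397_at read 13.39, 13.37 and 13.76 in Venus-high Tfh cells and 12.80, 12.83 and 13.18 in Venus-low Tfh cells. It read 13.56 and 13.66 in PD1-intermediate Th cells, 13.37 and 13.61 in PD1-low Th cells, and 13.53 and 13.51 in naive cells. Venus-low Tfh arrays were the lowest of all, with no array as high as any array of another group. The difference of Venus-high minus Venus-low Tfh cells was 0.57 ± 0.21 (limma, SE, n = 3 each), a 1.48-fold difference that was not called (adjusted p = 0.615). It was close to the same in each array set, 0.59, 0.53 and 0.58, and was called with the set term (adjusted p = 0.0122); with the replicate number as a block it was not (adjusted p = 0.0668). Venus-low Tfh minus PD1-intermediate Th cells was -0.68 ± 0.24 (adjusted p = 0.555; -0.45 with the set term, adjusted p = 0.0898; -0.43 within the third set). Venus-high Tfh cells lay among PD1-low and naive cells, with means 0.01 apart on the log2 scale.

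Acvr2a, a type II receptor for activins, read 11.54, 10.86 and 11.87 in Venus-high Tfh cells and 10.89, 11.26 and 11.57 in Venus-low Tfh cells on probe set 1437382_at. It read 11.60 and 11.77 in PD1-intermediate Th cells, 11.28 and 11.999 in PD1-low Th cells, and 11.75 and 11.31 in naive cells. All 5 groups overlapped with their neighbours, whose means were 0.05 to 0.18 apart, and no comparison called it.

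Tgfbr3 encodes betaglycan, a co-receptor with no kinase that presents TGF-beta to the type II receptor and binds inhibin. Among the receptors other than Acvrl1, it showed the widest spread over the groups. Probe set 1433795_at read 8.88, 9.02 and 9.80 in Venus-high Tfh cells and 9.12, 9.87 and 10.86 in Venus-low Tfh cells. It read 12.17 and 12.06 in PD1-intermediate Th cells, 10.49 and 12.13 in PD1-low Th cells, and 11.09 and 11.16 in naive cells. Every Venus-high Tfh array was below every array of the 3 groups that are not Tfh, while Venus-low Tfh array 3 was above PD1-low Th array 1.

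Tgfbr3 differed by -2.88 ± 0.61 between Venus-high Tfh and PD1-intermediate Th cells, a 7.38-fold lower level in the fit of the 5 groups (limma, n = 3 and 2, adjusted p = 0.0815). Both PD1-intermediate arrays were in the third set and the Venus-high Tfh arrays in all 3 sets. That fold thus also holds the difference between sets. With the set term the difference was -2.03 and called (adjusted p = 0.00925), and within the third set it was -2.32. Against naive cells Venus-high Tfh cells differed by -1.89 ± 0.61 (adjusted p = 0.126), and by -2.32 with the set term, which was called (adjusted p = 7.19e-04; -2.21 and -2.13 within the first and second sets). Venus-low Tfh minus PD1-intermediate Th cells was -2.17 ± 0.61 (adjusted p = 0.382; -1.31 with the set term, adjusted p = 0.0635). Venus-high minus Venus-low Tfh cells was -0.72 ± 0.55 and not called in either fit (adjusted p = 1.00; 0.0914 with the set term), though it was negative in all 3 sets (-0.24, -0.84 and -1.06).

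**Figure D2:**
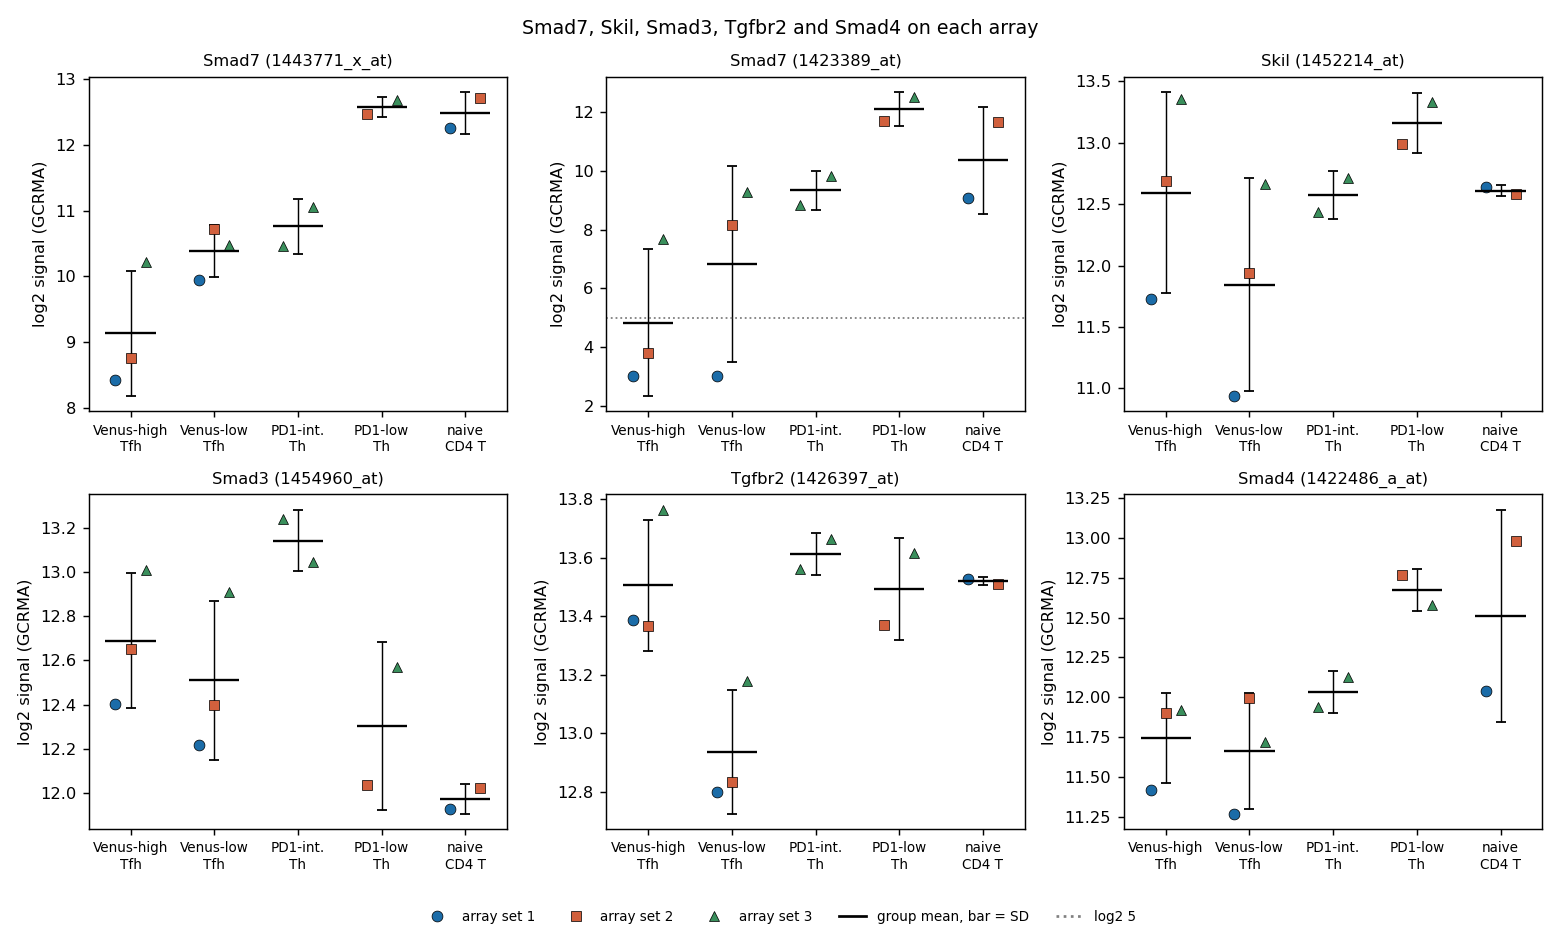
Log2 signal (vertical axes, as deposited) of 6 probe sets of Smad7, Skil, Smad3, Tgfbr2 and Smad4 on each of the 12 arrays, with the 5 sorted groups along the horizontal axes, marker shape and colour for the array set, a line at the group mean and a bar of 1 SD. Smad7 probe set 1443771_x_at lies between 8.42 and 10.22 in Venus-high Tfh cells and at 12.26 or above in PD1-low Th and naive cells, and Tgfbr2 is lowest in Venus-low Tfh cells.

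Smad2 and Smad3 are the receptor-activated Smads of TGF-beta and activin. Smad3 probe set 1454960_at read 12.40, 12.65 and 13.01 in Venus-high Tfh cells, 12.22, 12.40 and 12.91 in Venus-low Tfh cells, and 13.24 and 13.04 in PD1-intermediate Th cells. It read 12.04 and 12.57 in PD1-low Th cells and 11.93 and 12.02 in naive cells. PD1-intermediate arrays were the highest of all and naive arrays the lowest of all. PD1-intermediate minus PD1-low Th cells was 0.84 ± 0.34 (limma, adjusted p = 0.517), and 0.60 with the set term, where it was called (adjusted p = 0.0381; 0.57 within the third set). Venus-high Tfh minus naive cells was 0.72 ± 0.31 (adjusted p = 0.297), and 0.53 with the set term, again called (adjusted p = 0.0129; 0.48 and 0.63 within the first and second sets).

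Smad2 probe set 1420634_a_at read 8.46, 9.03 and 9.99 in Venus-high Tfh cells and 8.46, 9.64 and 10.21 in Venus-low Tfh cells. It read 10.07 and 10.31 in PD1-intermediate Th cells, 9.35 and 10.16 in PD1-low Th cells, and 8.54 and 9.04 in naive cells. In every group that spans array sets, the array of the set with the higher upper quartile read higher, and no comparison called Smad2.

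The upstream sequences of Tgfbr2 and Smad3 are shown because these are the members called higher in a comparison, both in the fit with the set term. Of the 10 genes, 4 had an entry among the RefSeq promoters (GRCm38.p6), and the 250 bases before the transcript start are printed 5′ to 3′ on the gene's strand. Capitals mark CAGAC, the Smad-binding box, searched as CAGAC and its reverse complement GTCTG. The Tgfbr2 window is chr9:116175364-116175613 and the Smad3 window chr9:63757995-63758244, both on the minus strand.
Tgfbr2: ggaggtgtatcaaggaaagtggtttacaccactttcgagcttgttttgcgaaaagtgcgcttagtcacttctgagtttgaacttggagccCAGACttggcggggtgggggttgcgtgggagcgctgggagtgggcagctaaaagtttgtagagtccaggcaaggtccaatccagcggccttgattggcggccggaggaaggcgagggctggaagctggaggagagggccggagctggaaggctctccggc
Smad3: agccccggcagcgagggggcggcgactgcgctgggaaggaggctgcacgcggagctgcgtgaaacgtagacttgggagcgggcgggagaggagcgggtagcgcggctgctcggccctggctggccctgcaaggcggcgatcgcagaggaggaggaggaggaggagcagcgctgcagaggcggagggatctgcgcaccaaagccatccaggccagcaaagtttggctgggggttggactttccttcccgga
The Tgfbr2 window holds the motif 1 time and the Smad3 window 0 times. Among all 32851 promoter windows of this length, 42.2% hold it at least once, and a match is no evidence of binding.

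Smad4, the shared partner of the receptor-activated Smads, had 3 tested probe sets. Probe set 1422486_a_at read 11.42, 11.90 and 11.92 in Venus-high Tfh cells and 11.27, 11.996 and 11.72 in Venus-low Tfh cells. It read 11.94 and 12.13 in PD1-intermediate Th cells, 12.77 and 12.58 in PD1-low Th cells, and 12.04 and 12.98 in naive cells. Both Tfh groups were below all PD1-low and naive arrays on this probe set. For Venus-high Tfh minus naive cells the 3 probe sets 1422486_a_at, 1422487_at and 1422485_at gave -0.77, -0.55 and -0.47, none of them called by limma (adjusted p = 0.345, 0.486 and 0.952). The set term gave -0.82, -0.72 and -0.85, all called (adjusted p = 0.00477, 0.00673 and 0.0289). The probe set 1422485_at value was 0.27 without naive array 2 in the fit with no set term, while within the first and second sets it was -0.33 and -1.38.

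Smad7 is an inhibitory Smad that TGF-beta itself induces and that recruits ubiquitin ligases to the receptor. Probe set 1443771_x_at read 8.42, 8.76 and 10.22 in Venus-high Tfh cells and 9.95, 10.72 and 10.48 in Venus-low Tfh cells. It read 10.47 and 11.05 in PD1-intermediate Th cells, 12.47 and 12.69 in PD1-low Th cells, and 12.26 and 12.71 in naive cells. PD1-low and naive arrays were all above every array of the 3 CXCR5+ groups, and Venus-high Tfh arrays were mostly the lowest, with array 3 above Venus-low array 1.

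Smad7 fell by 3.35 ± 0.53 on the log2 scale in Venus-high Tfh cells relative to naive cells, a 10.2-fold lower level (limma, n = 3 and 2, adjusted p = 0.00527). The set term gave -3.61 (adjusted p = 6.54e-04), and the values within the first and second sets were -3.83 and -3.95. This call was lost without naive array 2 (adjusted p = 0.0539) and with only those 2 groups in the fit (adjusted p = 0.130). PD1-intermediate minus PD1-low Th cells was -1.82 ± 0.58 (adjusted p = 0.270), called with the set term at -2.07 (adjusted p = 0.0347; -1.93 within the third set). Venus-high minus Venus-low Tfh cells was -1.25 ± 0.47 (adjusted p = 0.617; 0.0620 with the set term), and -1.53, -1.96 and -0.26 within the sets. Venus-high Tfh minus PD1-intermediate Th cells was -1.63 ± 0.53 (limma, adjusted p = 0.317), -1.11 with the set term (adjusted p = 0.211) and -0.54 within the third set.

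The second Smad7 probe set, 1423389_at, ran in the same direction over a wider range and depended on the array set. It read 3.03, 3.81 and 7.68 in Venus-high Tfh cells and 3.04, 8.16 and 9.27 in Venus-low Tfh cells. It read 8.85 and 9.80 in PD1-intermediate Th cells, 11.68 and 12.50 in PD1-low Th cells, and 9.07 and 11.64 in naive cells. It was the 1 tested member probe set that differed by over 3 between an array set and both others, being low in the first set. Venus-high Tfh minus naive cells was -5.51 ± 1.98 (limma, adjusted p = 0.177), and -6.69 with the set term (adjusted p = 0.00214). Only 1 of the 3 Venus-high arrays was above log2 5, so the size of these differences is not exact. The name ending _x_at marks 1443771_x_at as a probe set that can match other transcripts, so the level of Smad7 on it may include them.

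Skil encodes SnoN, a repressor of Smad complexes that is degraded when the pathway is active. Probe set 1452214_at read 11.73, 12.69 and 13.36 in Venus-high Tfh cells and 10.94, 11.94 and 12.66 in Venus-low Tfh cells. It read 12.44 and 12.71 in PD1-intermediate Th cells, 12.99 and 13.33 in PD1-low Th cells, and 12.64 and 12.58 in naive cells. Within each set the Venus-high array was above its Venus-low partner, by 0.79, 0.76 and 0.69. The difference, 0.75 ± 0.51, was not called in any of the 3 fits (limma, adjusted p = 1.00; 0.104 with the set term; 0.0506 with the replicate block). Venus-high Tfh minus PD1-intermediate Th cells was 0.02 ± 0.57 (adjusted p = 0.989), and 0.72 with the set term (adjusted p = 0.268; 0.78 within the third set). The other Skil probe set, 1422054_a_at, lay between 3.12 and 6.86 and was called in no comparison.

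**Figure D3:**
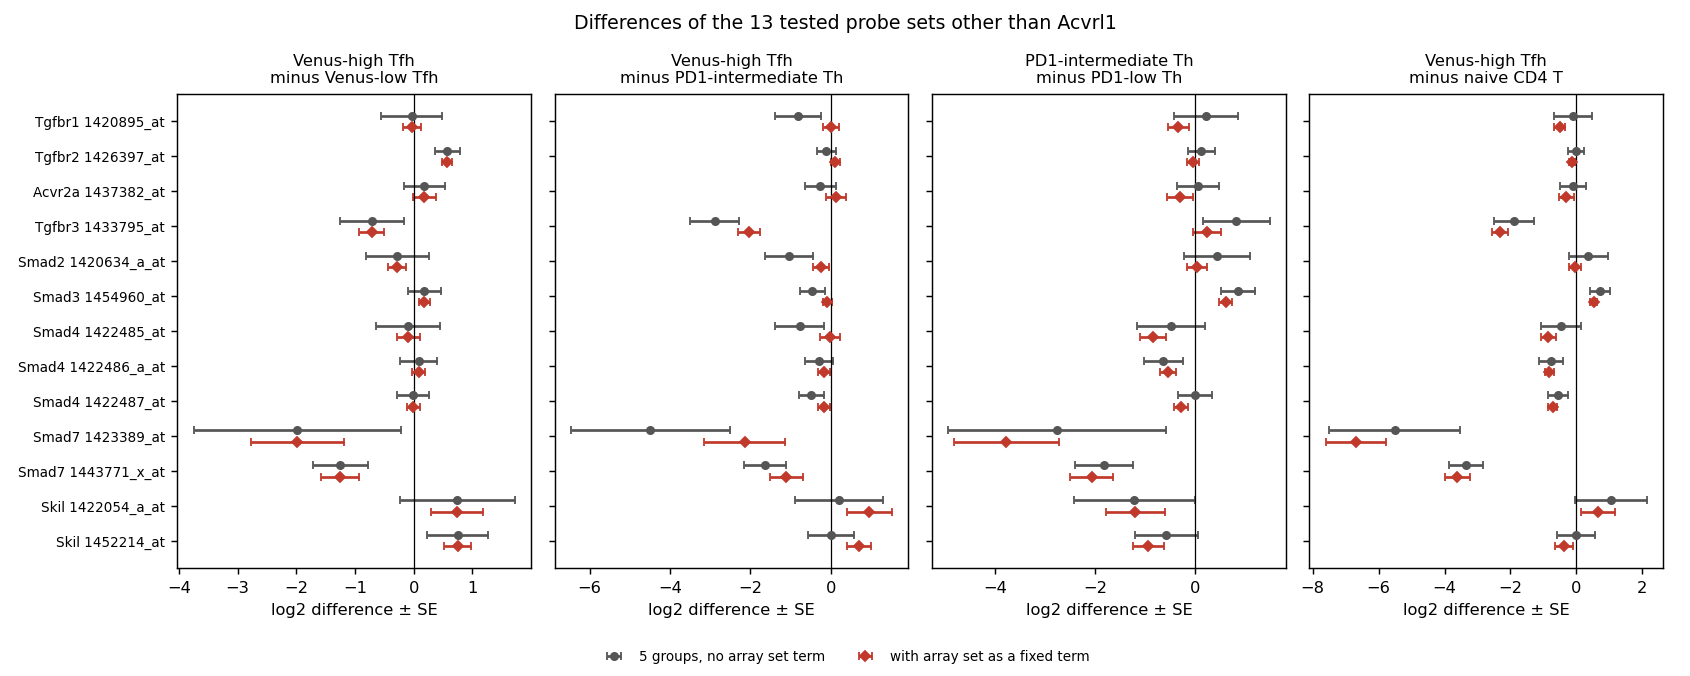
Log2 differences (horizontal axes) of the 13 tested probe sets other than Acvrl1 in 4 comparisons, as circles from the fit of the 5 groups and as diamonds from the fit with array set as a term, with bars of 1 SE. Both Smad7 probe sets and Tgfbr3 lie below 0 in Venus-high Tfh minus naive cells in both fits, and the bars are shorter with the set term.

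Counted over the 13 tested probe sets other than those of Acvrl1, few members passed the test, and the counts are read beside the share of all 22024 tested probe sets that passed. Between Venus-high and Venus-low Tfh cells 0 of 13 were called (limma adjusted p under 0.05), against 0.418% of all probe sets, and 2 had an unadjusted p under 0.05. The replicate block called 637 of all probe sets, against 92 without it, and 0 of the 13. Tgfbr2 was the 1 of 13 called higher with the set term, against 3.77% of all called higher. Between Venus-low Tfh and PD1-intermediate Th cells 0 of 13 were called in either fit, against 0.182% of all without the set term and 1.9% with it, and 2 had an unadjusted p under 0.05 in each. Between Venus-high Tfh and PD1-intermediate Th cells 0 of 13 were called, against 1.28% of all, with 2 at an unadjusted p under 0.05. Tgfbr3 was the 1 of 13 called lower there with the set term, against 2.61% of all called lower.

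Between PD1-intermediate and PD1-low Th cells 0 of 13 were called, against 1.99% of all, and 2 had an unadjusted p under 0.05. Smad3 was called higher with the set term, against 4.51% of all, and Smad7 (1443771_x_at) lower, against 2.72% of all. Between PD1-low Th and naive cells 0 of 13 were called in either fit, against 0.0318% of all without the set term and 0.25% with it, and 0 had an unadjusted p under 0.05. The largest number came from Venus-high Tfh against naive cells. There 1 of 13 was called, Smad7, against 7.77% of all called and 2.33% called lower. With the set term 6 of 13 were called lower, Tgfbr3, both Smad7 and all 3 Smad4 probe sets, against 15.2% of all called lower, and Smad3 was called higher, against 13.8% of all. The median difference of the 13 was -0.51 with the set term, beside -0.03 for all tested probe sets. Smad4 gives 3 of these 6 and Smad7 2, so the 6 probe sets stand for 3 genes.

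The other genes of the pathway were taken from 7 lists. Of 16 TGF-beta family ligands 14 were on the array and 3 were tested, Tgfb1, Tgfb3 and Bmp7. Tgfb3 and Bmp7 were called higher in PD1-intermediate than in PD1-low Th cells, against 1.49% of all probe sets, and higher in Venus-high Tfh than in naive cells, against 5.44% of all. Both passed the filter on low values only through the CXCR5+ groups, where they are high. The filter thus favoured these calls, which are given as a description. Tgfb3 read 8.05, 7.75 and 8.46 in Venus-high Tfh cells, 8.75, 7.35 and 8.09 in Venus-low Tfh cells and 8.0045 and 8.47 in PD1-intermediate Th cells. It read 2.09 and 2.11 in PD1-low Th cells and 2.05 and 2.02 in naive cells. Tgfb3 was thus measured in the 3 CXCR5+ groups and at the floor in the other 2, which is not the pattern of Acvrl1. Its difference was 6.14 ± 0.45 for PD1-intermediate minus PD1-low Th cells, at least 9.43-fold higher (limma, adjusted p = 3.32e-04), and 6.05 ± 0.41 for Venus-high Tfh minus naive cells, at least 8.50-fold higher (adjusted p = 7.43e-05).

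Bmp7, a bone morphogenetic protein, read 10.35, 10.13 and 10.15 in Venus-high Tfh cells, 9.21, 9.09 and 10.13 in Venus-low Tfh cells and 9.78 and 9.75 in PD1-intermediate Th cells. It read 4.69 and 5.77 in PD1-low Th cells and 2.30 and 2.86 in naive cells. It was at least 37.0-fold higher in Venus-high Tfh than in naive cells (difference 7.63 ± 0.42, limma adjusted p = 3.10e-05), and 4.54 ± 0.46 higher on the log2 scale in PD1-intermediate than in PD1-low Th cells (adjusted p = 0.00207). Outside the CXCR5+ groups Tgfb3 reached log2 5 on no array and Bmp7 only on PD1-low array 2, so the filter alone favoured calls of higher in CXCR5+ cells for both. With only the 2 groups in the fit, the PD1-intermediate minus PD1-low calls of Tgfb3 and Bmp7 were lost (adjusted p = 0.0809 and 0.168). Tgfb1 differed by -0.69 ± 0.26 in Venus-high minus Venus-low Tfh cells without being called (limma, adjusted p = 0.621), and was called with the set term (adjusted p = 0.0101), where 5.21% of all were called lower.

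**Figure D4:**
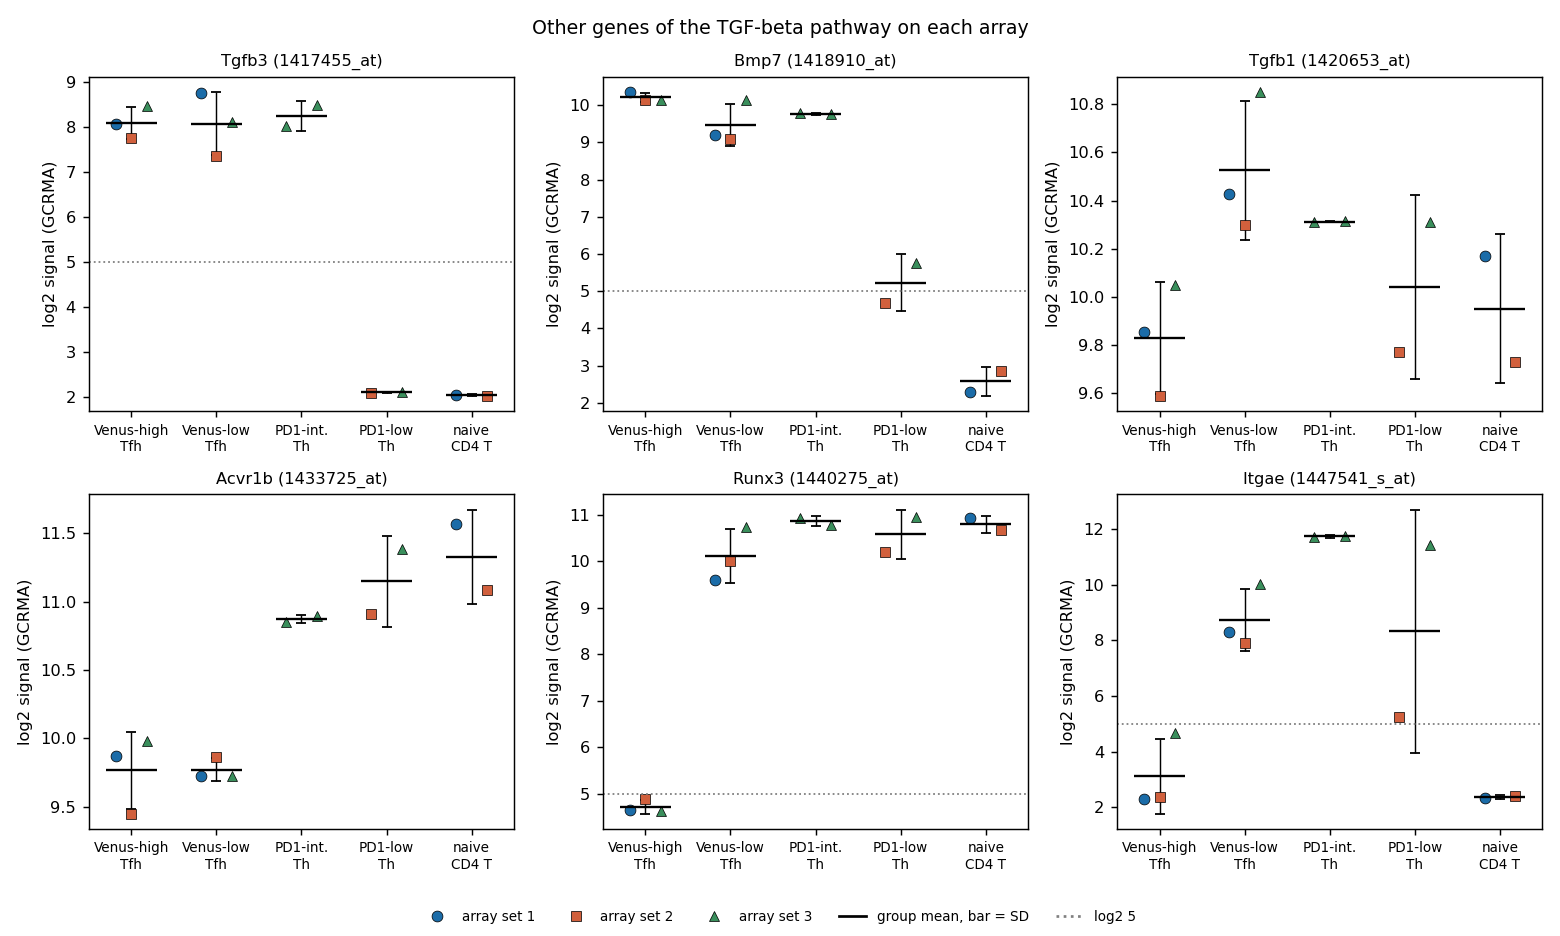
Log2 signal (vertical axes, as deposited) of Tgfb3, Bmp7, Tgfb1, Acvr1b, Runx3 and Itgae on each of the 12 arrays, with the 5 sorted groups along the horizontal axes, marker shape and colour for the array set, a line at the group mean and a bar of 1 SD. Tgfb3 is at 7.35 or above in the 3 CXCR5+ groups and at 2.11 or below in PD1-low Th and naive cells, and Runx3 averages 4.72 in Venus-high Tfh cells and 10.11 in Venus-low Tfh cells.

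Of the 10 other receptors of the family 4 were tested, and 1 was called without the set term, in Venus-high Tfh against naive cells, where 2.33% of all probe sets were called lower. Acvr1b (ALK4), the type I receptor of activin, was lower in Venus-high Tfh than in naive cells, 9.77 ± 0.28 against 11.33 ± 0.35 (log2 mean, SD, n = 3 and 2), a difference of -1.56 ± 0.27 (limma, adjusted p = 0.00935). This call was lost without naive array 1 (adjusted p = 0.0935) and with only the 2 groups in the fit (adjusted p = 0.206). Against PD1-intermediate Th cells it was -1.10 ± 0.27 in Venus-high Tfh cells (limma, adjusted p = 0.145), and called with the set term (adjusted p = 0.0371). Venus-low Tfh cells were as low in Acvr1b, at 9.77 ± 0.08 (n = 3). They differed from PD1-intermediate Th cells by -1.10 ± 0.27 (adjusted p = 0.290, and 0.0628 with the set term). The median of the 4 receptors was -0.82 in Venus-high Tfh minus naive cells, beside 0.16 for all. None of the 6 tested genes of ligand activation and inhibition and neither of the 2 other Smads, Smad1 and Smad5, was called without the set term in any comparison. Of the 6 genes, Ltbp1, Ltbp3, Itgav and Itgb8 differed by over 3 between an array set and both others. Without the set term their SEs were wide, 2.01 to 4.11 in Venus-high minus Venus-low Tfh cells, so a call there was hardly possible. With the set term Nrros, which anchors latent TGF-beta on cells, differed by -1.78 in Venus-high Tfh minus naive cells (limma, adjusted p = 0.00266). Furin, the protease that cuts the TGF-beta precursor, differed there by 0.50 (adjusted p = 0.0132) and Smad5 by -0.64 (adjusted p = 0.0384). In that fit 15.2% of all probe sets were called lower and 13.8% higher. Nrros was also called lower in Venus-high Tfh than in PD1-intermediate Th cells (-1.33, adjusted p = 0.0434), against 2.61% of all. Furin was called higher in PD1-intermediate than in PD1-low Th cells (0.68, adjusted p = 0.0224), against 4.51% of all.

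Among 16 tested Smad regulators 2 were called, both in Venus-high Tfh against naive cells, where 7.77% of all probe sets were called. Nedd4l, a ubiquitin ligase that targets activated Smad2 and Smad3, was 4.74 ± 1.40 in Venus-high Tfh and 9.57 ± 0.37 in naive cells, a fitted difference of -4.84 ± 0.69 (limma, adjusted p = 0.00328; 0.116 and not called with only the 2 groups). Only Venus-high array 2, at 6.34, was above log2 5, so the size of this difference is not exact. Sik1, a kinase induced by TGF-beta, was 8.35 ± 0.83 in Venus-high Tfh and 6.13 ± 0.25 in naive cells, a difference of 2.23 ± 0.47 (adjusted p = 0.0216), lost without naive array 1 (adjusted p = 0.153) or naive array 2 (adjusted p = 0.0904). Sik1 was highest in PD1-low Th cells, at 10.38 and 10.34. It read 8.86, 8.02 and 8.57 in Venus-low Tfh cells and 8.94 and 8.81 in PD1-intermediate Th cells, so its level above naive cells was not particular to Venus-high Tfh cells. With the set term 5 regulators were called lower in Venus-high Tfh than in naive cells, against 15.2% of all probe sets. They were Nedd4l, Smurf1, Ski, Smurf2 and Rnf111. The median of the 16 was 0.06 in Venus-high Tfh minus naive cells without the set term, beside 0.16 for all.

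Of 9 tested partners of Smads in transcription, Runx3, a factor best known in cytotoxic T cells, was called lower in Venus-high Tfh cells against each of the 3 groups they were compared with. It averaged 4.72 ± 0.14 in Venus-high Tfh cells, against 10.11 ± 0.58 in Venus-low Tfh cells, 10.86 ± 0.11 in PD1-intermediate Th cells and 10.79 ± 0.18 in naive cells. The differences were -5.39 ± 0.33, -6.14 ± 0.37 and -6.07 ± 0.37 (limma, adjusted p = 0.00259, 4.37e-04 and 4.66e-05), or at least 34.5-, 58.0- and 55.4-fold lower, where 0.259%, 0.672% and 2.33% of all probe sets were called lower. Runx3 thus separated the Tfh groups, while both Acvrl1 probe sets were under log2 5 in both. Fos, a subunit of AP-1, was highest in PD1-low Th cells, at 12.97 and 13.13. It read 10.27, 12.25 and 12.18 in Venus-low Tfh cells, 12.59 and 11.78 in PD1-intermediate Th cells, and 8.77 and 8.41 in naive cells. In Venus-high Tfh cells Fos was 3.43 ± 0.71 higher on the log2 scale than in naive cells (limma, adjusted p = 0.0204), where 5.44% of all probe sets were called higher. That call was lost in 5 of 21 alternatives, with each of Venus-high arrays 2 and 3 and both naive arrays left out, and Runx1 (1.10 ± 0.27, adjusted p = 0.0415) was lost in 14 of 21.

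Targets of TGF-beta in T cells moved in both directions among the 13 tested. Foxp3, the master regulator of regulatory T cells, averaged 6.00 ± 0.24 in Venus-high Tfh cells, against 11.00 ± 0.25 in Venus-low Tfh cells, 11.19 ± 0.21 in PD1-intermediate Th cells and 9.18 ± 1.36 in naive cells. Foxp3 was called lower in each of these comparisons, with differences of -5.00 ± 0.48, -5.20 ± 0.53 and -3.18 ± 0.53 (limma, adjusted p = 0.00555, 0.00304 and 0.00728). In the same order 0.259%, 0.672% and 2.33% of all probe sets were called lower. PD1-low Th cells had the highest Foxp3 values, 11.52 and 12.34. The call against PD1-intermediate Th cells was lost without PD1-intermediate array 2 (adjusted p = 0.0575). Those against Venus-low Tfh and naive cells were lost with only the 2 groups in the fit (adjusted p = 0.169 and 0.149), and the naive value ranged from -4.15 to -2.22 over the alternatives. Itgae, the CD103 integrin chain that TGF-beta induces, was lower in Venus-high Tfh than in PD1-intermediate Th cells, 3.12 ± 1.34 against 11.73 ± 0.05, at least 106-fold (adjusted p = 0.0465). Itgae was also low in naive cells, at 2.34 and 2.42. It read 8.29, 7.89 and 10.01 in Venus-low Tfh cells and 5.24 and 11.41 in PD1-low Th cells. Il2 was 2.34 ± 0.10 in Venus-high Tfh and 6.82 ± 0.10 in PD1-intermediate Th cells, at least 3.53-fold lower (limma, adjusted p = 0.0303). The Itgae and Il2 calls stand beside 0.672% of all probe sets called lower in that comparison. Cdkn1a, the p21 cell cycle inhibitor, was higher in Venus-high Tfh cells, at 9.31 ± 0.94, than in PD1-intermediate Th cells, at 4.39 ± 1.12 (4.92 ± 0.82, adjusted p = 0.0295), where 0.604% of all were called higher.

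The Itgae and Cdkn1a calls against PD1-intermediate Th cells were each lost in 12 of 21 alternatives, and that of Il2 in 11, among them without either PD1-intermediate array. Against naive cells Cdkn1a (6.35 ± 0.82, at least 19.8-fold higher, limma adjusted p = 0.00194), Ifng (6.13 ± 1.10, at least 15.5-fold higher, adjusted p = 0.0103), Nt5e (3.47 ± 0.72, adjusted p = 0.0210) and Gata3 (1.25 ± 0.23, adjusted p = 0.0108) were called higher in Venus-high Tfh cells. In that comparison 5.44% of all probe sets were called higher. Cdkn1a and Ifng passed the filter on low values only through CXCR5+ arrays, being at most 3.35 and 2.85 on PD1-low and naive arrays. Il2 passed it only through the PD1-intermediate arrays and Venus-low array 2 (5.25). The filter thus favoured the Cdkn1a and Ifng calls against naive cells and the Il2 call against PD1-intermediate Th cells, which are given as a description. Ifng, Nt5e and Gata3 were not called without naive array 1 or without naive array 2, which leave 1 naive array, and Nt5e also not without Venus-high array 2 or 3.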

How the data were processed

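Total RNA of sorted cells (20 ng) was amplified with the Nugen Ovation system and hybridised to Affymetrix mouse arrays, per the labels' protocols. The deposited values are log2 levels made by the authors with GCRMA, per the submitters' processing notes. The version, and which arrays were processed together, are not given in the sources used here. GCRMA leaves unexpressed probe sets at a floor near log2 2, and depth has no meaning for arrays: their number limits the precision.

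Of 45101 probe sets, 64 controls were left out, and 22024 with log2 5 or more on at least 2 arrays were tested. GEO's platform annotation gave 34958 probe sets 1 symbol, 932 several and 9211 none, and only the first kind was named. The design was a limma 3.58.1 (R 4.3.3) fit of 5 groups with eBayes, 6 comparisons, and Benjamini-Hochberg adjustment over all tested probe sets, called at an adjusted p under 0.05. The fit was checked on simulated data. It leaves 7 residual degrees of freedom, and 5 with array set as a fixed term. Bounds used a floor of log2 5. The array sets came from clustering the arrays' quantiles. The named genes are every probe set of the 10 members, up to 4 called genes with the largest change (else the 2 of smallest p) per pathway list and comparison, and the 5 genes most correlated with Acvrl1. The members and lists were chosen with earlier results of these data known.

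Venus-high and Venus-low arrays of the same number deviated together from their group means (correlations 0.948, 0.973 and 0.951; different numbers -0.772 to 0.241), and these numbers were taken as pairs. No label states that arrays of the same number share mice. They also lie in the same array set, so these correlations cannot tell shared mice from a shared set. The replicate block groups the Tfh arrays as the array sets do, in a fit of the Tfh groups alone. Alternatives were no filter, quantile normalization, a trended robust prior, 1 probe set per gene, only the compared groups, array set as fixed or random term, leaving out probe sets displaced by over 3 in one array set (3998 of those tested), the replicate block and each array left out.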

Additional observations from a re-analysis of the deposited data

How the results depend on the processing

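Counts below are of all tested probe sets and then of the 13 member probe sets other than Acvrl1 called, in the order Venus-high minus Venus-low Tfh, Venus-low Tfh minus PD1-intermediate Th, Venus-high Tfh minus PD1-intermediate Th, PD1-intermediate minus PD1-low Th, PD1-low Th minus naive, and Venus-high Tfh minus naive. Without alternatives they were 92, 40, 281, 439, 7 and 1712, and 0, 0, 0, 0, 0 and 1. Array set as a fixed term gave 1978, 419, 1342, 1594, 55 and 6384, and 1, 0, 1, 2, 0 and 7. As a random block it gave 2455, 1053, 1671, 1959, 136 and 6567, and 2, 1, 1, 2, 0 and 7. The fixed term without displaced probe sets, added after seeing the data, gave 2375, 705, 1489, 1805, 76 and 6667, and 2, 1, 1, 2, 0 and 6. Leaving out displaced probe sets alone gave 166, 101, 380, 582, 17 and 2033, and 0, 0, 1, 0, 0 and 1. Quantile normalization gave 305, 76, 508, 676, 24 and 2642, and 0, 0, 1, 1, 0 and 3. No filter gave 61 for Venus-low Tfh minus PD1-intermediate Th and 32 for PD1-low Th minus naive, with 2 members for Venus-high Tfh minus naive. The trended robust prior gave 46 between the Tfh groups, 13 for Venus-low Tfh minus PD1-intermediate Th and 3 for PD1-low Th minus naive. With 1 probe set per gene 1 member was called in Venus-high Tfh minus PD1-intermediate Th. With only the compared groups the counts were 0, 0, 41, 0, 0 and 551, with 0 members in each, and the Runx3 and Foxp3 calls between the Tfh groups were lost (adjusted p = 0.192 and 0.169). The replicate block called 637 probe sets between the Tfh groups and 0 members, and it changed no member call. Leaving out 1 array at a time gave 16 to 111, 4 to 38, 56 to 288, 94 to 382, 0 to 24 and 979 to 1653 probe sets, and 0 members but for 0 to 1 in Venus-high Tfh minus naive. Counts fell by over 1.5 times in Venus-high Tfh minus naive without naive array 1 (979) or 2 (1013), in Venus-high Tfh minus PD1-intermediate Th without Venus-high array 2 (176) or PD1-intermediate array 1 (94) or 2 (56), and in PD1-intermediate minus PD1-low Th without PD1-intermediate array 1 (94) or 2 (160) or PD1-low array 1 (149). In the other 3 comparisons most arrays moved the count that far. Leaving out Acvrl1 in the Tfh comparisons, 25 member differences had an unadjusted p under 0.05 in either fit. Of their 516 alternative values 467 kept direction and side of the threshold, 5 lost the call and 39 gained it. The other 5 changed sign, and none of these differences was called in the fit of the 5 groups. They were Skil 1452214_at in Venus-high Tfh minus PD1-intermediate Th (-0.03 and -0.37 without Venus-high array 2 or 3, -0.12 without PD1-intermediate array 1, up to 0.45 with another array left out), Tgfbr1 in Venus-high Tfh minus naive (0.22 without Venus-high array 1, down to -0.50) and Smad4 1422485_at there (0.27 without naive array 2, down to -1.21). The cause was not tested. Signals under log2 5 have no order, which limits Acvrl1 and Tgfb3 to bounds.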
